A study of Homo sapiens with 4 samples.

Results

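The interferon-stimulated genes examined here were 35 named genes of the antiviral response, among 19970 protein-coding genes on chromosomes 1 to 22 and X of the RefSeq gene table (GRCh38). A peak was counted for a gene when it touched the span from 5000 bp before the gene's lower-coordinate end to 5000 bp after its higher-coordinate end. RNA polymerase II (Pol II) had been profiled by chromatin immunoprecipitation and sequencing (ChIP-seq) in U2OS, a human osteosarcoma cell line. The cells carried an siRNA against NKAP (NKAP knockdown) or a control siRNA for 48 h, with lipid transfection in each case, and no interferon treatment is named in the labels. Each condition had 1 ChIP library and 1 input library. The analysis used the deposited Pol II peaks alone, 26387 in the knockdown list and 36345 in the control list, with a median of 19 and 18 reads at the summit. With 1 library a condition, no difference below has a replicate check and none was tested. The sources used here state neither the siRNA sequences nor how far NKAP was depleted.

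Interferon-stimulated genes are kept low in most resting cells and are switched on when type I or type III interferon reaches its receptor. The JAK kinases then phosphorylate STAT proteins, and a complex that holds STAT2 and IRF9 binds the interferon-stimulated response element (ISRE) in the promoters of these genes. The products sense viral RNA, block viral entry or replication, and adjust the signal itself. Pol II ChIP-seq reads where the polymerase sits on the DNA, which for most genes is mainly just after the start of transcription.

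The promoters of 6 members are shown because they stand for the patterns found below: a start peak in the knockdown list alone (IFIH1, IFIT5), in the control list alone (IFI6, IFITM3), in both (IFI44L) and in neither (IFIT1). Each run covers 250 bases before to 50 bases after an annotated start, 5′ to 3′ on the gene's strand, from RefSeq (GRCh38.p14). Capitals mark matches to the ISRE core GAAANNGAAA, on either strand, where N is any base. The places are chr2:162318635-162318934 (minus strand) for IFIH1, chr10:89414318-89414617 (plus) for IFIT5, chr1:27672143-27672442 (minus) for IFI6, chr11:320811-321110 (minus) for IFITM3, chr1:78620198-78620497 (plus) for IFI44L and chr10:89392373-89392672 (plus) for IFIT1.
IFIH1: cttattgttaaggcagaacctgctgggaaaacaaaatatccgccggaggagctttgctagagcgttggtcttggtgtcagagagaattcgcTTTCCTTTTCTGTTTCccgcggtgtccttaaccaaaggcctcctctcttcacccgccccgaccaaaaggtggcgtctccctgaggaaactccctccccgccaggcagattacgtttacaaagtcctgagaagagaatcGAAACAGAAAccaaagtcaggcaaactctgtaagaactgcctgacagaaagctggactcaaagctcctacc
IFIT5: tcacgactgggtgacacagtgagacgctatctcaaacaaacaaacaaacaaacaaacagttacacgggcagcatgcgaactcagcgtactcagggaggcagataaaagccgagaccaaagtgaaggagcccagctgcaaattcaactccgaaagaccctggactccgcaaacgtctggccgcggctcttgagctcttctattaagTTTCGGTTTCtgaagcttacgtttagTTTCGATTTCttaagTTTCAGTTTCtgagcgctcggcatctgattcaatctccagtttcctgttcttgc
IFI6: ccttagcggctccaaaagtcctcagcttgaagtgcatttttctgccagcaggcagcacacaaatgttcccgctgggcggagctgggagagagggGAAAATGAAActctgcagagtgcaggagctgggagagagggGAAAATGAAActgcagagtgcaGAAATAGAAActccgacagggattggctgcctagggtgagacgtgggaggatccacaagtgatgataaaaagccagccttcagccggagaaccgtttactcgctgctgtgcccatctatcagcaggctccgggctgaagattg
IFITM3: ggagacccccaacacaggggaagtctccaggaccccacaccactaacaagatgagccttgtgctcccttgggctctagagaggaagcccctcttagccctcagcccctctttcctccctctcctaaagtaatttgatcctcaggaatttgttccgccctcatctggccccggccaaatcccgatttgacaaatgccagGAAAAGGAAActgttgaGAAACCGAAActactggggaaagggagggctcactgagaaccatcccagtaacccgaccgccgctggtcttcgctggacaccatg
IFI44L: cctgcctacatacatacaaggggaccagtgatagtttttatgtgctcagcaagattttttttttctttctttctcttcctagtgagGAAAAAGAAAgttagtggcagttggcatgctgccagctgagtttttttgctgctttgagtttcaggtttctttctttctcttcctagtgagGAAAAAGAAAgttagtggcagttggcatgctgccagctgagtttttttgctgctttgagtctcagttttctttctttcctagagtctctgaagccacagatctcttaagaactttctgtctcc
IFIT1: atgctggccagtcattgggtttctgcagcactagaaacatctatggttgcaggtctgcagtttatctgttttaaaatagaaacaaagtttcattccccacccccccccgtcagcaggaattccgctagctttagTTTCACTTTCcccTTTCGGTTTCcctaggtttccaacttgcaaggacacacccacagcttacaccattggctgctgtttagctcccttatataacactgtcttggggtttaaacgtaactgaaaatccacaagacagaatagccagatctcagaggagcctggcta

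IFIH1 and IFIT5 held 3 matches each, as did IFI6, and the other 3 promoters held 2 each. At IFIT5 the match nearest the start spanned positions −4 to 6, with the start counted as 1. At IFIH1 the nearest spanned −21 to −12, and the other 2 overlapped, at −159 to −150 and −153 to −144. In IFI6 the matches began at −156, −115 and −93, and in IFITM3 at −52 and −35. The letters were thus present in promoters of every pattern of peaks shown.

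The promoter table held 38 promoters for 28 of the 35 members, with 8 members having more than 1, some of which overlap. IFIT2, IFITM2, MX2, OAS2, OASL, IRF7 and USP18 were placed by their gene ends instead. ISRE letters stood in 25 of the 38 promoters (65.8%), against 3.57% of all 35116 promoters of the table. By gene, 12 of 16 members with a Pol II summit within 1000 bp of an end or start held a match, and so did 9 of 12 members without such a summit. A match in any promoter of the gene counted, so at RSAD2 the match and the summit belong to different starts. The core of the interferon-gamma element (GAS, TTCNNNGAA, its own reverse complement) stood in 10 of 38 promoters (26.3%), against 7.66% of the table. In 5 of the 38 it shared bases with an ISRE match. The TATA box letters TATAAA, on either strand, stood in 5 of 38 (13.2%), against 11.5% of the table.

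Pol II peaks lay near 20 of the 35 genes in the knockdown list and near 20 in the control list, but the genes were not all the same. The share was 57.1% in each list (95% Wilson interval 40.9 to 72.0), against 66.5% of all protein-coding genes in the knockdown list and 70.1% in the control list. Peaks in both lists were found for 17 members (48.6%, against 64.7% of all genes). IFI44, IFIH1 and IFIT5 had peaks in the knockdown list alone, which is 8.57% of the members (2.96 to 22.4), against 1.74% of all genes. IFI6, IFIT2 and IFITM3 had peaks in the control list alone, again 8.57%, against 5.34% of all genes. A peak in a single list was thus found for 6 of the 23 members with any peak (26.1%), against 9.85% of all genes with any peak. The shares of all genes are not matched for peak strength, and the members' peaks at gene ends and starts were weaker, as given below. Whether peak strength bears on the single-list shares was not tested. These intervals cover counting error only, and neighbouring genes can share a peak.

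**Figure D1:**
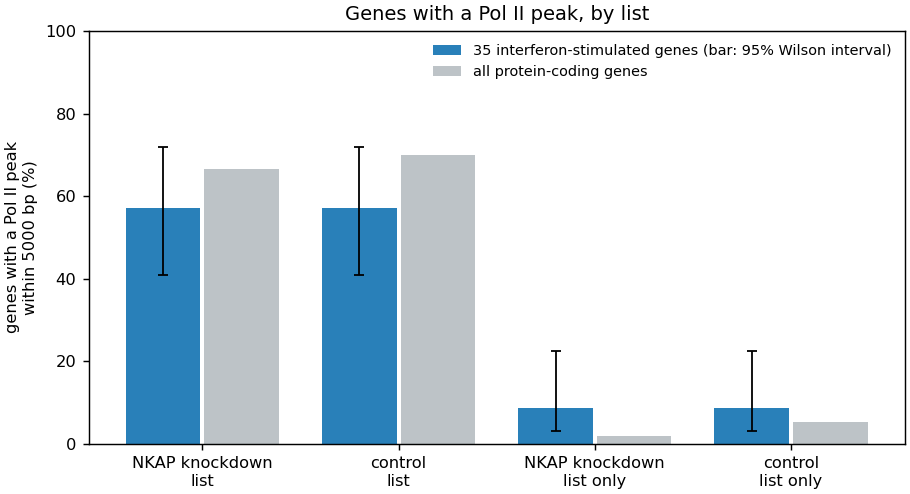
Share of genes (percent, vertical axis) with a Pol II peak within 5000 bp in the NKAP knockdown list, in the control list, and in each list alone, for the 35 interferon-stimulated genes (blue, with the 95% Wilson interval) and all 19970 protein-coding genes (grey). The members stand at 57.1% in each list, below the 66.5% and 70.1% of all genes, and at 8.57% in each single-list class.

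Counted by summits at a gene end or annotated start, within 1000 bp, the members again came out even. There were 15 of 35 in the knockdown list (57.6% of all genes had such a summit) and 15 in the control list (60.6% of all genes). Of these, 12 had one in both lists (34.3%, against 55.6% of all genes). The knockdown list alone had IFI35, IFIH1 and IFIT5 (8.57%, against 1.94%), and the control list alone had IFI6, IFIT2 and IFITM3 (8.57%, against 4.93%). The IFI35 case was a matter of where the summit fell: it lay 302 bp from the gene's far end in the knockdown list and 1089 bp inside it in the control list, on overlapping peaks, with a knockdown summit 453 bp from an end of VAT1.

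IFIH1, which encodes the cytoplasmic RNA sensor MDA5, had a knockdown peak centred on its start. The gene spans chromosome 2 from 162267074 to 162318684 on the minus strand. The knockdown peak was 338 bp wide, its summit 1 bp before the start, with a fold enrichment over the caller's background of 5.55 and a −log10 p of 8.64. There were 13 reads at that summit (95% Poisson interval 6.92 to 22.2) over a background of 1.35. The start of GCA lay 78 bp from the same summit, so the peak could belong to either gene. The nearest control peak was 24832 bp from it.

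IFIT5, whose product binds RNA bearing 5′ phosphates, had a knockdown peak 949 bp wide with its summit 191 bp after the start. Its fold was 4.42, with 18 reads (10.7 to 28.4) over a background of 3.00, and the nearest control peak lay 62178 bp away. An end of LIPA, the lysosomal acid lipase gene, lay 80 bp from the summit. IFI44, a gene of unclear biochemical role induced by type I interferon, had a narrow knockdown peak of 254 bp that lay 1015 bp beyond the gene's 3′ end, 15262 bp from the nearest start. That peak had a fold of 7.91 and 16 reads (9.15 to 26.0), and no control peak lay within 44212 bp of it. No peak of either list lay at the start of IFI44.

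IFI6, a mitochondrial and endoplasmic reticulum protein gene known for its antiviral and survival effects, had a control peak 370 bp wide with its summit 43 bp after the start. Its fold was 4.51, with 17 reads (9.90 to 27.2) over a background of 2.99. The nearest knockdown peak lay 11557 bp from this control peak. IFITM3, which encodes a membrane protein that hinders viral fusion, had 2 control peaks. The stronger had its summit 78 bp after the start, a fold of 6.40 and 14 reads (7.65 to 23.5), and the weaker lay 1084 bp beyond the gene's far end, with a fold of 4.35 and 12 reads (6.20 to 21.0). The nearest knockdown peaks lay 9143 and 6954 bp from them.

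IFIT2, of the same RNA-binding family as IFIT5, had a control peak 172 bp from its lower-coordinate end, with a fold of 5.49 and 11 reads (5.49 to 19.7). The nearest knockdown peak to it lay 23519 bp away. All of these peaks lay below the middle of their lists. By −log10 p the knockdown peaks stood at percentiles 20.6 (IFIH1), 12.2 (IFIT5) and 47.5 (IFI44) of all 26387 knockdown peaks. The control peaks stood at 23.7 (IFI6), 19.3 (IFIT2) and 41.0 (the start peak of IFITM3) of all 36345 control peaks. The lowest −log10 q-value was 3.02 in the knockdown list and 3.01 in the control list, so Pol II may be present below that limit without a peak. When the control list was cut to as many strongest peaks as the knockdown list, IFI6 and IFIT2 lost their control peaks, and IFITM3 alone was left in the control list only.

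The IFIT genes lie side by side on chromosome 10 and differed among themselves. IFIT3, which stabilizes the RNA-binding complex with IFIT1, had a start peak in both lists. Its summit lay 165 bp after the start in the knockdown list and 187 bp after it in the control list, with folds of 5.58 and 6.02. There were 17 reads (9.90 to 27.2) in the knockdown library and 23 (14.6 to 34.5) in the control library. IFIT1, the member that binds viral RNA lacking cap methylation, had no peak within 5000 bp in either list. The nearest peaks were 7913 bp from IFIT1 in the knockdown list, which is the IFIT5 peak, and 40401 bp in the control list. The annotated span of LIPA runs over IFIT2, IFIT3 and IFIT1 and ends just inside IFIT5, so Pol II here could also belong to LIPA.

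**Figure D2:**
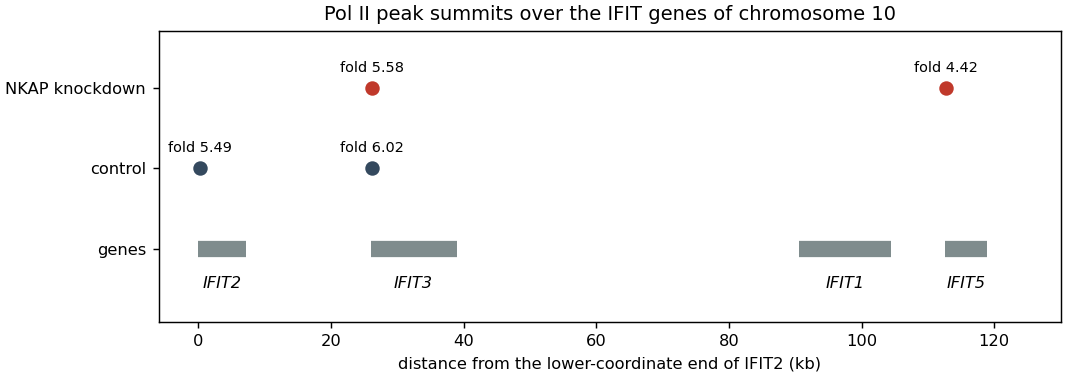
Pol II peak summits over IFIT2, IFIT3, IFIT1 and IFIT5, by distance from the lower-coordinate end of IFIT2 (kb, horizontal axis), in the NKAP knockdown list (top row) and the control list (middle row), with the genes in the bottom row. IFIT3 has a summit in both lists (folds of 5.58 and 6.02), IFIT5 in the knockdown list (4.42) and IFIT2 in the control list (5.49).

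Of the signalling genes, STAT2 and IRF9 had start peaks in both lists, and IRF7 had no peak. STAT2, a subunit of the interferon-activated complex, is on chromosome 12 from 56341597 to 56360107. Its summit had 27 reads (17.8 to 39.3) and a fold of 8.66 in the knockdown list, and 38 reads (26.9 to 52.2) and a fold of 15.0 in the control list. The peak was 1058 bp wide in the knockdown list and 1363 bp in the control list, and an end of APOF lay 445 and 545 bp from the summits. IRF9, the DNA-binding subunit of that complex, had 17 reads (9.90 to 27.2) in the knockdown library and 18 (10.7 to 28.4) in the control library, with folds of 8.86 and 8.87. The IRF9 summit stood 177 bp after the start in the knockdown list and 159 bp before it in the control list, and an end of RNF31 was 787 and 451 bp away. IRF7, which amplifies interferon production, had its nearest peak at 35536 bp in the knockdown list and at 27007 bp in the control list.

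Among the sensors and RNA-directed enzymes, DDX60, an RNA helicase gene linked to RIG-I-like sensing, had a start peak in both lists. It had 18 reads (10.7 to 28.4) and a fold of 5.89 in the knockdown list, and 24 reads (15.4 to 35.7) and a fold of 11.7 in the control list. The caller's background for DDX60 was 2.0 in the knockdown list and 1.14 in the control list. OAS1, OAS2 and OAS3 encode the oligoadenylate synthetases that activate the nuclease RNase L. They lie together on chromosome 12 and had no peak in either list, the nearest being 45019 bp from OAS2 in the knockdown list. OASL, a relative without synthetase activity, lies elsewhere on chromosome 12 and had a peak in both lists at its higher-coordinate end. That peak had 23 reads (14.6 to 34.5) in the knockdown library and 18 (10.7 to 28.4) in the control library. Folds were 5.57 and 8.02, over backgrounds of 3.0 and 1.37.

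PARP9 and DTX3L share a bidirectional start on chromosome 3, and their common peak was among the strongest of the member starts. PARP9 is an ADP-ribosyltransferase family member and DTX3L is its partner ubiquitin ligase. The shared summit had 26 reads (17.0 to 38.1) and a fold of 10.7 in the knockdown list, and 33 reads (22.7 to 46.3) and a fold of 15.9 in the control list. The peak was 916 bp wide in the knockdown list and 1260 bp in the control list. PARP14, a mono-ADP-ribosyltransferase gene on the same chromosome, had 29 reads (19.4 to 41.6) in the knockdown library and 23 (14.6 to 34.5) in the control library, with folds of 9.28 and 9.25. Its knockdown summit lay 468 bp after the start. Its stronger control summit lay 60 bp after it, and the control list held another peak, 229 bp wide, with its summit 540 bp before the start.

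CMPK2, a mitochondrial nucleotide kinase gene, and RSAD2, which encodes the radical-SAM enzyme viperin, also share a start region, on chromosome 2. Their common peak had 17 reads (9.90 to 27.2) in the knockdown library and 16 (9.15 to 26.0) in the control library, with folds of 5.58 and 5.68. The summit lay 277 bp before the nearest RSAD2 start, at 6865885, in the knockdown list and 44 bp after it in the control list. The knockdown peak ended 88 bp short of RSAD2. ISRE letters stood only in the promoter of another RSAD2 start, at 6877777, where neither list had a peak. IFI44L, a paralog of IFI44, had 27 reads in each library (17.8 to 39.3), with a fold of 8.66 in the knockdown list and 9.36 in the control list. Its knockdown peak was 351 bp wide and its control peak 614 bp, with summits 84 and 37 bp before the start.

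**Figure D3:**
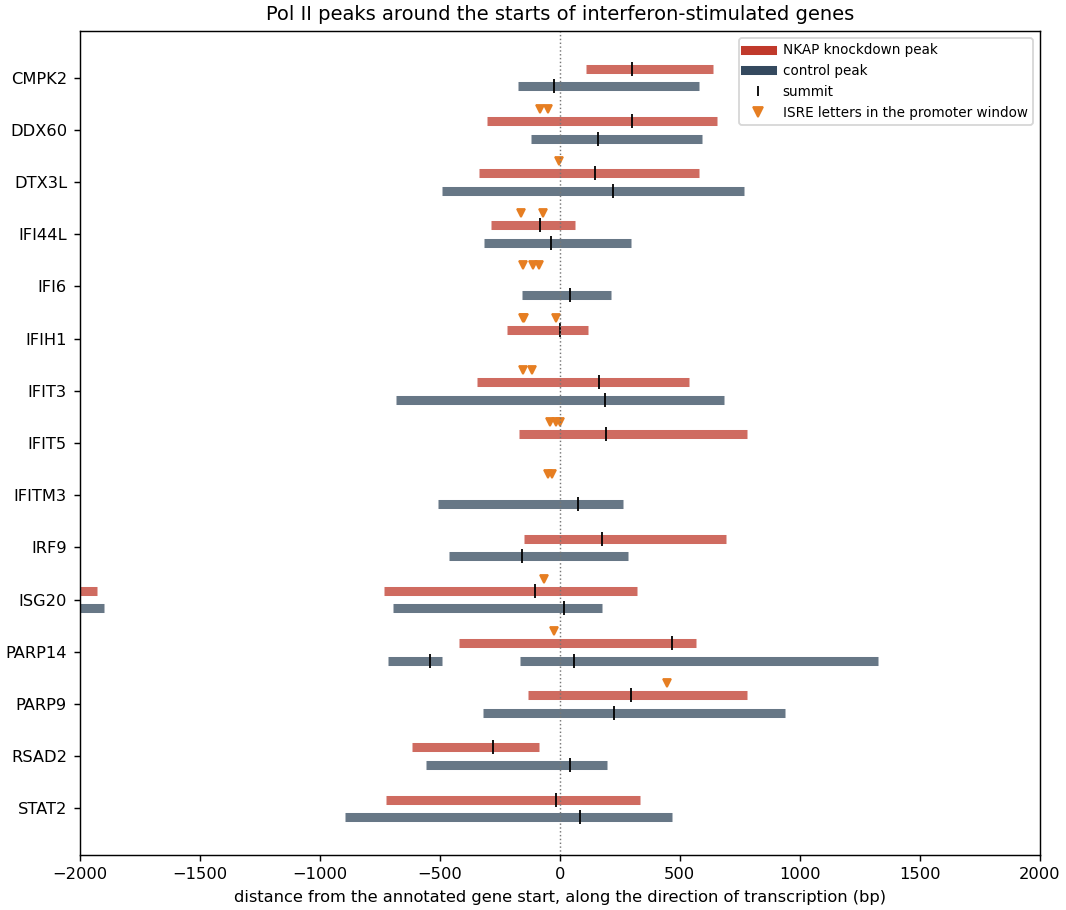
Pol II peaks (bars) and summits (ticks) around the annotated starts of the members with a summit within 1000 bp of a start, by distance from the start along the direction of transcription (bp, horizontal axis), for the NKAP knockdown list (red, upper bar of each gene) and the control list (dark, lower bar). Where a gene has several starts, 0 is the most upstream of those nearest to a summit; orange triangles mark ISRE letters within the 300-base promoters. IFIH1 and IFIT5 carry a red bar alone, IFI6 and IFITM3 a dark bar alone.

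ISG20, an interferon-induced RNA exonuclease gene on chromosome 15, had the most peaks of any member, 6 in the knockdown list and 7 in the control list. At its annotated start there were 23 reads (14.6 to 34.5) in each library, with folds of 11.1 in the knockdown list and 7.32 in the control list. These folds differ because the caller's background was 1.0 in the knockdown list and 2.28 in the control list. The strongest control peak of ISG20 lay 2425 bp before that start, 959 bp inside the lower-coordinate end of the gene's annotated span. It had a fold of 14.2 and 30 reads over a background of 1.19. The knockdown peak overlapping it had a fold of 6.81 and 21 reads over a background of 2.0. Knockdown peaks with folds of 6.98 and 6.52 lay 817 and 259 bp outside that end, and a control peak of fold 7.7 lay 1315 bp outside it. Further inside the gene, a peak with its summit 10065 bp after the start in the knockdown list and 9861 bp after it in the control list had folds of 6.50 and 4.62. Control peaks with folds of 5.07, 5.14 and 6.07 lay towards the neighbouring p53 target AEN, which had a knockdown summit of fold 5.58.

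The IFITM genes share a stretch of chromosome 11. A peak between IFITM2 and IFITM1 counted for both of these genes. In the knockdown list this peak had 18 reads (10.7 to 28.4) and a fold of 4.42 over a background of 3.0. In the control list the peak had 15 reads and a fold of 7.47 over a background of 1.14. Its summit lay 2919 bp (knockdown) and 2581 bp (control) before the IFITM1 start, and no peak lay at that start. These genes are near-identical in parts, and the sources used here do not state how reads with several matches were treated. XAF1, a pro-apoptotic gene that antagonizes XIAP, had a peak upstream in both lists. The summit lay 2738 bp (knockdown) and 2893 bp (control) before the nearest XAF1 start. Folds were 8.37 and 6.02, with 17 and 23 reads over backgrounds of 1.0 and 2.99.

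Peaks counted for ISG15 and IFI35 lay largely at neighbours. ISG15 encodes a ubiquitin-like modifier, and the peak counted for it reached its window by 5 bp in the knockdown list and 518 bp in the control list. That peak had its summit 154 bp (knockdown) and 155 bp (control) from the start of AGRN, with folds of 9.59 and 15.4. USP18, which removes ISG15 from its targets and damps receptor signalling, had no peak within 71804 bp in the knockdown list or 71899 bp in the control list. At IFI35 the strongest peak touching the window had a fold of 13.0 in the knockdown list and 25.1 in the control list. Both summits lay within RPL27, a ribosomal protein gene, but at different sites. The knockdown summit was 4835 bp before IFI35. The control summit was 8202 bp before it, beyond the 5000 bp limit, and 163 bp from an end of RPL27. The 5000 bp limit fell between ISG15, whose knockdown peak began 4996 bp from the gene, and IFI6, whose nearest knockdown peak was 5642 bp away.

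No peak of either list lay near 12 of the 35 members (34.3%, against 28.2% of all protein-coding genes). Besides IFIT1, IRF7, USP18, OAS1, OAS2 and OAS3, these were IFI27, the antiviral GTPase genes MX1 and MX2, BST2 (tetherin, which holds budding virus at the cell surface), and the restriction factor genes SAMD9 and SAMD9L. For MX1 the nearest peak was 252571 bp away in the knockdown list and 251893 bp in the control list, and for IFI27 the distances were 920839 and 24375 bp. ISRE letters stood in a promoter of IFIT1, IFI27, MX1, OAS3, BST2 and SAMD9 among these genes.

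Where the members had Pol II at an end or start, the peaks were weaker than those of protein-coding genes as a whole. The strongest such peak per gene had a median fold of 7.91 (range 4.42 to 11.1, n = 15 members) in the knockdown list, and 15 of the 15 lay under the 11.2 that was the median of all 11500 genes with such a peak. In the control list the members' median was 8.87 (4.51 to 15.9, n = 15), and 11 of 15 lay under the median of 13.5 of 12098 genes. The median reads at these summits were 18 in the knockdown list and 23 in the control list, against 30 and 37 over all genes. Start summits of the members lay within 1000 bp of an annotated start by the rule that defines them, so their closeness to it is not a finding. The median distance was 177 bp over 13 pairs of gene and peak in the knockdown list and 81 bp over 14 in the control list. Here and in the counts by member above, the peaks shared by PARP9 and DTX3L and by CMPK2 and RSAD2 counted for each gene.

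**Figure D4:**
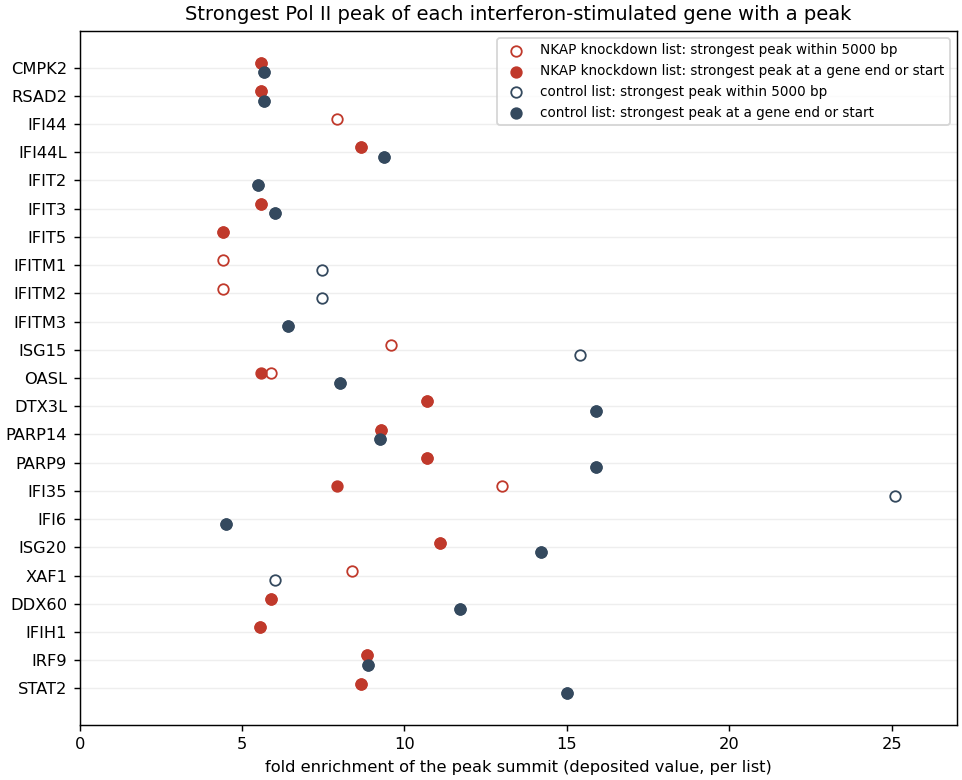
Deposited fold enrichment (horizontal axis) of the strongest peak of each member with a peak in either list, with the NKAP knockdown list in red above the control list in dark blue; filled points are peaks at a gene end or start (summit within 1000 bp), open points the strongest peak within 5000 bp where that is another. The filled knockdown points run from 4.42 to 11.1 and the filled control points from 4.51 to 15.9; folds belong to each list's own background.

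Where a member had a start or end peak in both lists, the read numbers overlapped within counting error. Depth was estimated from the caller's background, and the knockdown library came to 85.8% of the control library. With knockdown reads raised to control depth, none of the 9 distinct start peaks found in both lists had a 95% Poisson interval apart from that of the control. Over these 9 the knockdown library had 201 reads (174 to 231), which is 234 (203 to 269) at control depth, and the control library had 225 (197 to 256). For the 12 members with an end or start peak in both lists, the strongest such peak of each list was taken, giving 10 distinct pairs. The ratio of knockdown reads at control depth to control reads had a median of 1.01 (quartiles 0.889 and 1.24). It ran from 0.828 at STAT2 to 1.49 at OASL. Over all 11113 genes with such peaks in both lists the median was 0.903 (quartiles 0.777 and 1.06). The ratio was above 1 for 6 of the 12 members and for 33.2% of all these genes. At ISG20 the strongest peaks lay at different sites, the start in the knockdown list and 2425 bp upstream in the control list. Pairs were therefore also formed from overlapping peaks, a rule added after the values were seen. With each gene's strongest knockdown peak and the control peak overlapping it, ISG20 had 23 reads in each library (a ratio of 1.17), the members' median was 1.13 and 7 of 12 were above 1, against a median of 0.905 and 33.3% over all genes. With the strongest control peak and the knockdown peak overlapping it, ISG20 had 21 knockdown and 30 control reads (0.816), the members' median was 1.01 and 6 of 12 were above 1, against 0.901 and 32.2% over all genes. With 1 library a condition, a difference of this size was not tested.

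**Figure D5:**
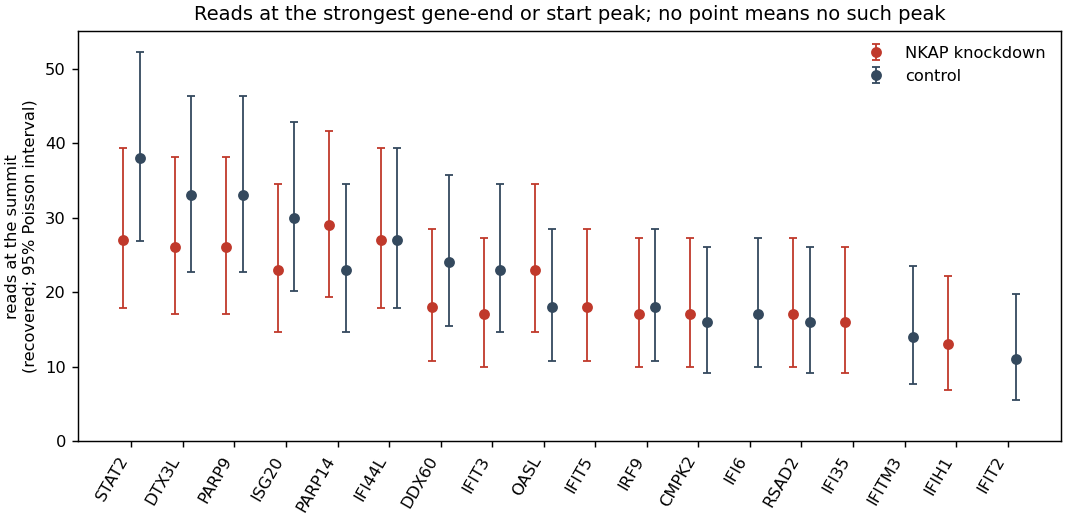
Reads at the summit of the strongest gene-end or start peak of each member (vertical axis), recovered from the deposited fold and p-value, in the NKAP knockdown library (red, left of each pair) and the control library (dark, right), with 95% Poisson intervals that cover counting error only and no correction for depth. The intervals of every pair overlap, and the ISG20 points come from different sites; a gene with a single point had such a peak in that list alone.

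Peaks covered 18375 bp of the members' windows in the knockdown list and 24036 bp in the control list, out of 1064403 bp. The shares were 1.73% and 2.26%, a ratio of 0.764. Over the windows of all protein-coding genes the shares were 1.40% and 2.24%, a ratio of 0.623. Cover was lower in the knockdown list for 18 of the 23 members with any (78.3%, against 86.1% of all genes with any) and higher for 5 (21.7%, against 13.8%). With windows of 1000 bp the ratio was 0.936 for the members and 0.634 for all genes, and with windows of 10000 bp it was 0.736 and 0.622.

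In each other interferon pathway list, as many genes had a peak within 5000 bp in the knockdown list as in the control list. Summits within 1000 bp of an end or start were found for 17 (knockdown) and 16 (control) receptor and signalling genes. They were found for 11 and 10 sensors and adaptors, and for 15 and 14 of the further interferon-induced genes below. Over all protein-coding genes, 66.5% had a peak within 5000 bp in the knockdown list, 70.1% in the control list and 64.7% in both. For summits within 1000 bp of an end or start, the shares of all genes were 57.6%, 60.6% and 55.6%. None of the 10 interferon ligand genes, among them IFNB1 and IFNL1, had a peak within 5000 bp in either list. Of the 18 genes of receptors and JAK-STAT-IRF signalling, 17 had a peak in both lists and IRF5 in neither. The highest folds in this group were at SOCS1 (44.5) and JAK1 (21.3) in the knockdown list and at SOCS3 (44.3) and SOCS1 (42.9) in the control list, where the SOCS genes encode feedback inhibitors of JAK signalling. The SOCS3 start peak had a fold of 10.7 with 68 reads in the knockdown list and 44.3 with 125 reads in the control list. The caller's background at that peak was higher in the knockdown list, so these folds differ by more than the reads do. Of the 17 sensors and adaptors, 12 had a peak in both lists, and DHX58, STING1, TLR3, ZBP1 and AIM2 had none. The highest folds were at TRAF6 (21.3) and TICAM1 (18.8) in the knockdown list and at TRAF6 (19.0) and TBK1 (16.7) in the control list. The TICAM1 value belongs to a peak 3003 bp beyond the gene, and the TICAM1 start peak had a fold of 5.89 in the knockdown list and 12.2 in the control list. The TRAF6 start peaks also lay within 1000 bp of an end of RAG1.

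A further 30 interferon-induced genes had a peak for 14 in both lists and for 12 in neither, against 64.7% and 28.2% of all protein-coding genes. SP110 and HERC6 had one in the knockdown list alone, and PML and LGALS3BP in the control list alone. The single-list shares of all genes were 1.74% (knockdown) and 5.34% (control). SP110, a nuclear body protein gene, had a knockdown start peak of fold 10.7 with 22 reads, its summit 76 bp from the start, and no control peak within 121856 bp of it. HERC6, a HECT-type ubiquitin ligase family gene, had a knockdown start peak of fold 4.65 with 19 reads, 16879 bp from the nearest control peak. PML, the organizer of nuclear bodies, had 3 control peaks with folds of 4.01 to 4.68. All 3 lay within 1000 bp of an end or start of STOML1, and 2 of them were 2105 and 2448 bp outside PML. LGALS3BP, a secreted galectin-binding glycoprotein gene, had a control start peak of fold 5.20 with 22 reads. The nearest knockdown peaks lay 8615 bp (PML) and 6207 bp (LGALS3BP) from these. The highest folds of this group were at TRIM25 (46.1) and B2M (20.1) in the knockdown list and at TRIM25 (36.0) and B2M (25.7) in the control list.

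Lineage markers were checked against the label of an osteosarcoma line. Of 10 mesenchymal and osteoblast lineage genes, 8 had a peak within 5000 bp in each list, among them VIM and SPARC, and TWIST1 and COL1A2 had none. Over all protein-coding genes 66.5% (knockdown) and 70.1% (control) had one, and lineage was not tested. The strongest peaks counted for SP7 (folds of 14.7 and 20.1) lay at AAAS, and those for BGLAP (14.2 and 10.2) near PAQR6. Both genes also had weaker peaks at an end or start in each list. Of 8 leukocyte genes 3 had one in each list. PTPRC had 1 knockdown peak (fold 5.43) and 5 control peaks (up to 10.7), all inside the gene. SPI1 had a peak near its lower-coordinate end, 438 bp from it in the knockdown list (fold 6.20) and 443 bp in the control list (7.21). The strongest peak counted for CD79A lay at RPS19, and CD3E, CD14, LYZ and ITGAM were among those with none. Of 4 epithelial genes, CDH1 had control peaks, inside the gene, and EPCAM, KRT5 and KRT14 had none in either list.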

How the data were processed

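The submitters' processing notes name MACS2 2.1.0, Bowtie 1.1.2, Trimmomatic 0.33, bcl2fastq 2.17 and the build hg38; the sources used here state neither the settings nor the background library. Each ChIP library has its own deposited peak list, in the narrowPeak layout without a header. By that layout the deposited columns are positions, a score (10 times the −log10 q-value, within 1), the summit's fold enrichment, the −log10 p-value, the −log10 q-value and the summit's place. The deposited fold and p-values describe peaks within a list.

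Peaks on 22 autosomes and X were used, 26387 (knockdown) and 36345 (control); 1526 and 2218 on other sequences were left out. Whole reads at each summit were recovered by inverting the caller's formulas, fold = (reads + 1)/(background + 1) and p the Poisson tail, with knockdown reads scaled by 0.926; the deposited p was met within 0.002 (−log10) for 99.99% of knockdown and 99.94% of control peaks. The relative depth came from the lowest common background and the smallest peak width of each list. Values were computed in Python 3.11.15 (pandas 2.3.3, scipy 1.17.1) and were tested on simulated data. Intervals cover counting error only. A gene's ends were the ends of its table span, and its starts those of the promoter table. Members given in full were those with a peak in a single list, those with the 5 highest folds in each list and those with a summit at an end; of other lists, genes with a peak in a single list and the 2 highest folds per list were named, and others are named for context after their values were seen. The members and the other gene lists were chosen with earlier results of these data known.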

Additional observations from a re-analysis of the deposited data

How the results depend on the processing

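Each count and covered length was recomputed under 6 other rules, and the overlap of peaks under 1 more. The knockdown count stayed between 16 and 23 members, the control count between 16 and 20, and the members in the knockdown list alone between 3 and 4, always with IFI44, IFIH1 and IFIT5. The members in the control list alone fell to 1 with windows of 10000 bp (IFIT2) and to 1 with equal numbers of strongest peaks (IFITM3), and were 3 otherwise. Counts over all protein-coding genes were not recomputed under these rules, so the changes in member counts have no comparison. Covered bases moved with the rule. In the knockdown and control lists they were 13820 and 14760 bp with windows of 1000 bp, 29150 and 39584 bp with windows of 10000 bp, and 15110 and 17502 bp without peaks nearer to a gene outside the list. In the control list they were 23455 bp at a −log10 q of at least 5, 21647 bp with equal numbers of strongest peaks and 20106 bp with the summit in the window. The cause was not tested, beyond the change in window or peaks that each rule makes. Of 24 knockdown peaks in the windows, 20 overlapped a control peak by 1 bp and 19 by at least 0.5 of the shorter peak's length. Of 27 control peaks in the windows, 19 overlapped a knockdown peak and 8 did not. The same shares over all peaks of each list were not computed, so these counts have no comparison. The members' median ratio of reads was 1.01 from the strongest peaks, 1.13 from the strongest knockdown peak and its overlapping control peak, and 1.01 the other way, a rule added after seeing the data; ISG20 made the difference. Summits held 10 to 74 reads, so differences in reads of less than their intervals could not be seen. No paired analysis was possible because each condition had 1 ChIP library.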
